A study of Mus musculus with 12 samples.

Results

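The 49 genes described here code for proteins that copy DNA or drive cell division, and they were taken by symbol from the deposited table of 20308 genes. They comprise 24 genes of DNA replication (S phase), 22 genes of mitosis and the G1 cyclins Ccnd1, Ccne1 and Ccne2. The mitosis class includes Mki67, Top2a, Hmgb2 and Ccna2, whose roles span S phase to mitosis, so it is not purely mitotic. All 49 were in the table and all passed the filter on low counts, which left 12761 genes. RNA was sequenced from urogenital sinus epithelium, an embryonic tissue from which prostate and urethral epithelium form, at embryonic day 15.5 in mice of the strain C57BL/6J. There were 8 libraries of Dnmt1cKO embryos, in which a Cre expressed from Shh removed Dnmt1 from this epithelium, and 4 Control libraries of wildtype embryos. Deletion by this driver is limited to cells with a history of Shh expression, and each lysate pooled several embryos after trypsin had freed the epithelium from the stroma. Dnmt1 encodes the maintenance DNA methyltransferase, which copies methylation onto new DNA strands.

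In S phase, the MCM helicase is loaded at origins by Cdc6 and Cdt1, is switched on by Cdc45 and the GINS complex, and unwinds DNA for the polymerases, while Pcna holds the polymerases on the strand and Fen1 and Lig1 join the pieces of the lagging strand. In mitosis, cyclin B with Cdk1 starts division, Aurora and Polo kinases build the spindle, checkpoint proteins hold the cell until chromosomes are attached, and the anaphase-promoting complex with Cdc20 and Ube2c releases it. Many S-phase genes are switched on by E2F transcription factors, and many mitotic genes by the MuvB complex, which binds a motif called CHR, together with NF-Y, which binds the CCAAT box. Maintenance methylation is tied to replication, since Dnmt1 binds Pcna, and methylated Lig1 is bound by Uhrf1, the partner of Dnmt1.

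The 2 classes differed in their promoter sequence, which the choice of members did not use. RefSeq (GRCm38.p6) windows of 250 bases before to 50 bases after an annotated start matched 39 of the 49 members, 20 of 24 replication genes and 18 of 22 mitosis genes, and a gene was counted when any of its windows held the motif on either strand. An E2F motif, TTTCCCGC or TTTGGCGC, was found in 10 of the 20 replication genes (50%), in 0 of the 18 mitosis genes and in 3.4% of the 9627 tested genes with a window. The CHR motif TTTGAA was found in 4 of 20 replication genes (20.0%), in 14 of 18 mitosis genes (77.8%) and in 14.2% of tested genes. The CCAAT motif was found in 13 of 20 replication genes (65.0%), in 17 of 18 mitosis genes (94.4%) and in 43.5% of tested genes, and CHR and CCAAT together in 3, in 14 and in 5.99% in the same order. Of 104 matches in member windows, 1 overlapped another match, a CCAAT motif of Ube2c on the other strand. A match describes the letters only and is not evidence that a factor binds there.

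**Figure D1:**
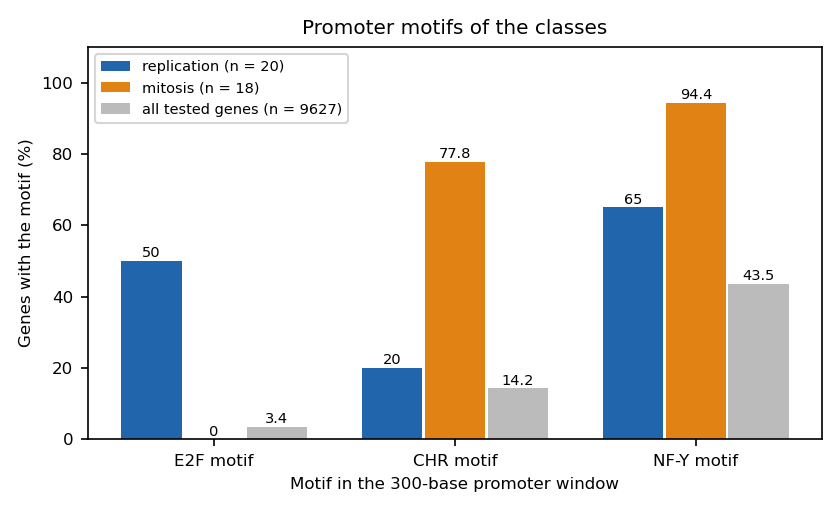
Share of genes (%, y axis) with each motif in a 300-base promoter window, for replication members (blue), mitosis members (orange) and all tested genes (grey). E2F motifs stood in 50% of replication windows and in 0 mitosis windows, and CHR motifs in 20% and 77.8%.

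A pair of windows from each class is shown because each carries the motifs of its class. Capitals mark matches, in gene orientation: TTTGGCGC, TTTCCCGC or its reverse complement (E2F), TTTGAA (CHR), and CCAAT or its reverse complement ATTGG. The windows are Mcm3, a helicase subunit (chr1:20820263-20820562, minus strand), Mcm6, another helicase subunit (chr1:128359656-128359955, minus strand), Ccnb2, a cyclin of mitotic entry (chr9:70421505-70421804, minus strand), and Bub1b, a spindle checkpoint kinase (chr2:118597961-118598260, plus strand).
Mcm3: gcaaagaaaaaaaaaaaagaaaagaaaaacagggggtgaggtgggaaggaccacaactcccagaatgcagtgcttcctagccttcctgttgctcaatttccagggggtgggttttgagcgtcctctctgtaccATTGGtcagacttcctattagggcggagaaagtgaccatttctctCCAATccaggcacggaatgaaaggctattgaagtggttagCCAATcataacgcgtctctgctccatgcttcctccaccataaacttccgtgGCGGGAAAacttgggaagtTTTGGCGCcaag
Mcm6: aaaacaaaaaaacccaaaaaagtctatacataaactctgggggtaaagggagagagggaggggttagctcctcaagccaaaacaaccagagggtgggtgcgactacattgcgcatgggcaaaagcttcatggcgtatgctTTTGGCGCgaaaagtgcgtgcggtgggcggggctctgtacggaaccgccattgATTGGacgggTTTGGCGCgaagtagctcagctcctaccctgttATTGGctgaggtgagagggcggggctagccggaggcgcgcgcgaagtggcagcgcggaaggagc
Ccnb2: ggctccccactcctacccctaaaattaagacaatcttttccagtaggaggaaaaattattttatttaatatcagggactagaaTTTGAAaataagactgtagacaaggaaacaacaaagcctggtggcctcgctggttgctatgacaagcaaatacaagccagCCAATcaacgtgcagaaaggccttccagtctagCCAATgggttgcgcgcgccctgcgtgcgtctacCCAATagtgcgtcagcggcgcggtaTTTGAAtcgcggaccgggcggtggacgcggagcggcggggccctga
Bub1b: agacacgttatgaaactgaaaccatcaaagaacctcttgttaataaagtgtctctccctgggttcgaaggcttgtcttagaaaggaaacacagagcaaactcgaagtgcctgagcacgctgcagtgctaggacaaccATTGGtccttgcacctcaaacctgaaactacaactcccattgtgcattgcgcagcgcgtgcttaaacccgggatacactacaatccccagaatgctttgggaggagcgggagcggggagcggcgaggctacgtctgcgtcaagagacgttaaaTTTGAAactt
The Mcm3 window has E2F motifs 19 and 38 bases after the start, and the Mcm6 window has them 110 and 47 bases before it (offsets -110 and -47). The Mcm3 and Mcm6 windows also hold 3 and 2 CCAAT motifs. The Ccnb2 window has 3 CCAAT motifs and 2 CHR motifs, at offset -167 and 4 bases after the start. The Bub1b window has 1 CCAAT motif and a CHR motif 40 bases after the start.

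Depth and composition differed strongly among the Control libraries. Total expected counts were 4007533 to 11970907 in Dnmt1cKO libraries, and 7577706, 2915193, 1613514 and 543591 in the libraries labelled Control 1 to 4, in that order. Of the 49 members, 0 to 2 had under 10 counts in a Dnmt1cKO library, against 0, 3, 17 and 37 in Control 1 to 4, and 5 members in Control 3 and 8 in Control 4 were at 0. Levels are CPM, counts scaled to the TMM-adjusted library total, at which 3 counts correspond to 2.26 CPM in Control 3 and 8.53 CPM in Control 4, a floor that covers counting error only. Dnmt1 itself averaged 53.5 ± 24.2 CPM in Dnmt1cKO and 129 ± 98.3 CPM in Control (SD, n = 8 and 4), a log2 difference of -1.29 with an adjusted p of 0.284 (edgeR, Benjamini-Hochberg). The library labelled Control 4, at 2.84 CPM and so under its floor, lay below every Dnmt1cKO library, against its label. As 49.2% of all tested genes did so too in that library, this value alone does not decide the label. All 16 epithelial markers were detected, and their summed level was 6960 to 12500 CPM in Dnmt1cKO, against 10200, 19500, 4130 and 36700 CPM in Control 1 to 4. In Control 3, 12 of the 16 lay below every Dnmt1cKO library, beside 35.8% of all tested genes. The regulators Trp63 and Foxa1 were at 2.26 CPM each there and Grhl2 at 0. Epcam (783 CPM), Krt8 (856 CPM) and Krt18 (879 CPM) of Control 3 were above their levels in Controls 1 and 2 (515 and 641, 514 and 613, and 239 and 300 CPM). Summed stromal markers were 618 to 7300 CPM in Dnmt1cKO, against 5940, 6280, 12900 and 1460 CPM in Control 1 to 4. Summed markers of other cells in Dnmt1cKO and Control ranged over 5.00 to 72.7 and 8.53 to 161 CPM (endothelial), 13.6 to 68.7 and 2.84 to 212 CPM (immune), 10.5 to 1540 and 429 to 5830 CPM (erythroid), and 14.9 to 633 and 31.3 to 681 CPM (neural and glial). Of 20 stromal genes tested, 8 were lower in Dnmt1cKO at an unadjusted p under 0.05 (edgeR), beside 9.54% of all tested genes. Called lower were 0 by edgeR, 2 by DESeq2 and 1 by limma-voom, beside 1.55%, 8.07% and 0.243% of tested genes. The count of 8 became 0 without Control 3, 10 without the library labelled Control 4 and 1 without both. Among all tested genes these fits gave 1148 of 13333, 845 of 13352 and 310 of 13990. Whether these differences play a part in the results was not tested, so the fold changes are also given without Control 3 and the library labelled Control 4, where that of Dnmt1 was -1.31 (adjusted p = 0.289). In bulk tissue, fewer cells of a type and less RNA per cell cannot be told apart.

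**Figure D2:**
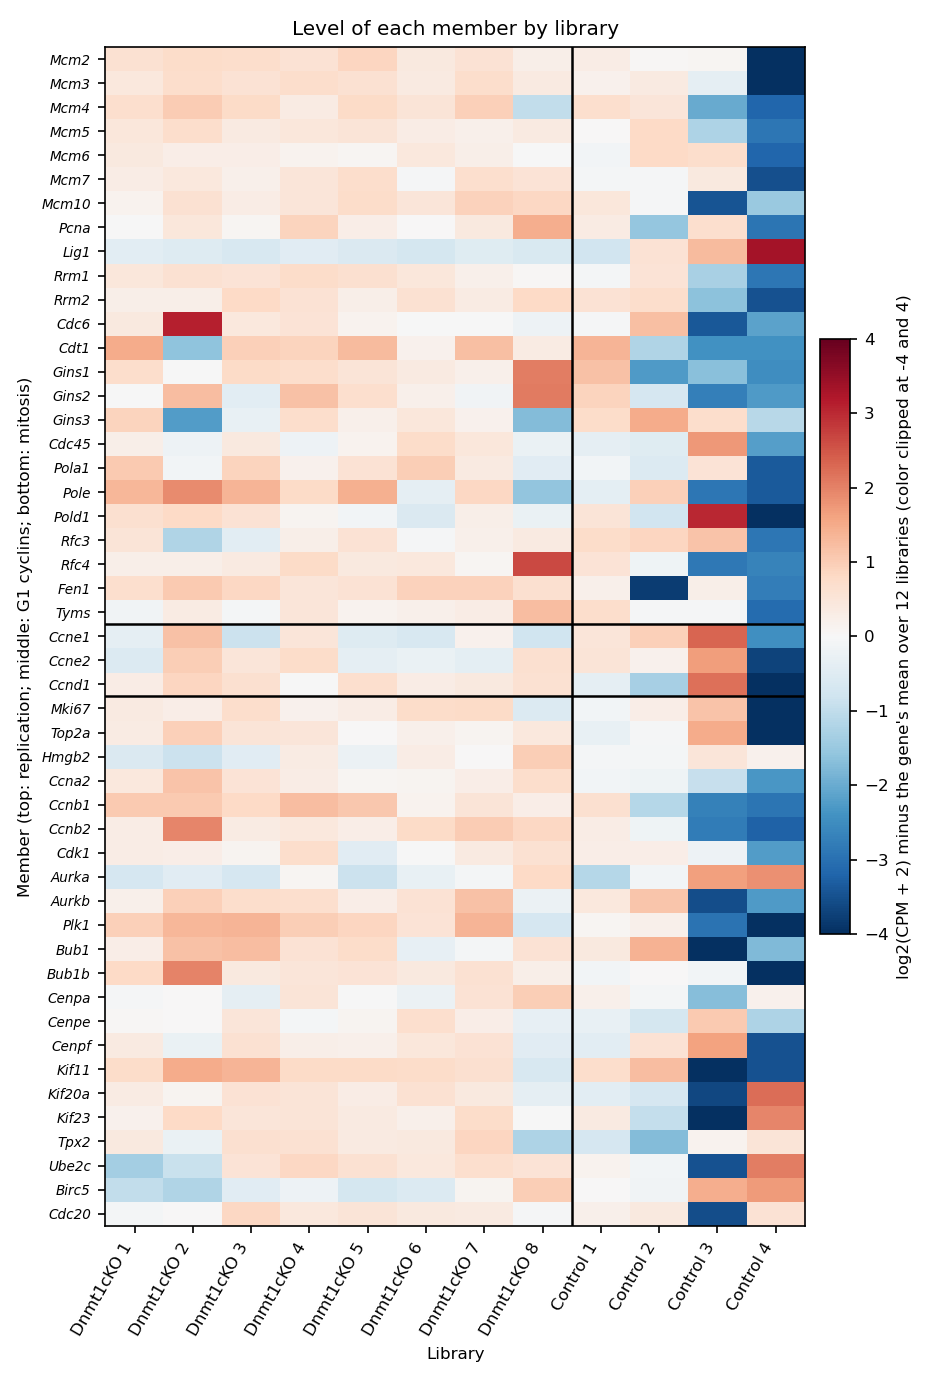
Level of each member (rows) in each library (columns, 8 Dnmt1cKO left, 4 Control right) as log2(CPM + 2) minus the gene's mean over the 12 libraries, with color limits at -4 and 4. The columns of Control 3 and Control 4 hold most of the deep colors, while Lig1 is low in the 8 Dnmt1cKO libraries and Control 1 and highest in Control 4.

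Of the 49 members, 1 was lower and 0 were higher in Dnmt1cKO at an adjusted p under 0.05 (edgeR quasi-likelihood F-test, Benjamini-Hochberg over all tested genes), beside 1.55% lower and 1.03% higher among all tested genes. The member called was Lig1, the ligase that seals nicks between lagging-strand pieces. At an unadjusted p under 0.05, 3 members were higher (Ccnb1, Ccnb2 and Plk1) and 3 lower (Lig1, Aurka and Birc5), beside 8.19% and 9.54% of all tested genes. DESeq2 called 0 members higher and 3 lower (Lig1, Birc5 and Aurka, with 3.82% and 8.07% of tested genes called), and an unadjusted p under 0.05 was reached by 6 higher and 3 lower (9.69% and 14.9% of tested genes). Limma-voom with quality weights called 0 in each direction (0.0627% and 0.243% of tested genes), and an unadjusted p under 0.05 was reached by 4 higher and 0 lower (5.13% and 5.16% of tested genes). With Control 3 and the library labelled Control 4 left out, edgeR called 0 members in either direction, beside 0.322% of tested genes higher and 0.0143% lower, with counts at an unadjusted p under 0.05 given below.

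Lig1 had its lowest, median and highest Dnmt1cKO levels at 132, 146 and 159 CPM, against 127, 326, 522 and 2200 CPM in Control 1 to 4. The 8 Dnmt1cKO libraries were tightly grouped, at 147 ± 9.91 CPM (SD, n = 8), 3 Control libraries stood above all of them, and Control 1 stood just below. The fitted log2 fold change was -2.43 ± 0.45 (SE), 5.38-fold lower in Dnmt1cKO, with an adjusted p of 0.00214 (edgeR, Benjamini-Hochberg). This call rested on the library labelled Control 4, the shallowest, where Lig1 had 772 counts: without it the log2 fold change was -1.06 (adjusted p = 0.122), and without Control 3 as well it was -0.55 ± 0.29 (adjusted p = 0.573). Over the 21 alternatives the adjusted p ranged from 8.9e-05 to 0.573. Within libraries that share the code b4, b5, b6 or b7 in their descriptions, whose meaning is not given, the Dnmt1cKO minus Control difference in log2(CPM + 2) was 0.13, -1.04, -1.85 and -3.93. Lig1 lies at chr7:13277283-13311433 on the plus strand (GRCm38, GENCODE M21), and 6.16% of its exon length overlaps Zswim9 on the opposite strand. The sources used here do not say if reads were counted by strand, so reads of a member and of a gene that overlaps it cannot be told apart.

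Lig1 was also the member with the smallest spread among Dnmt1cKO libraries, with a coefficient of variation of 6.76%. It made up 5.75% to 7.64% of the summed replication level in Dnmt1cKO, against 6.79%, 16.1%, 24.6% and 94.4% in Control 1 to 4. In the library labelled Control 4, 22 of the 24 replication genes lay below every Dnmt1cKO library and Lig1 alone lay above. Of all tested genes, 49.2% lay below and 16.3% above in that library.

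The helicase genes Mcm2, Mcm3, Mcm5 and Mcm6 were, after Lig1, the members with the smallest spread in Dnmt1cKO, with coefficients of variation of 9.94% to 13.9%. Mcm3 had a lowest, median and highest level of 147, 172 and 187 CPM in Dnmt1cKO, against 128, 147, 89.0 and 2.84 CPM in Control 1 to 4. Every Control library lay below the lowest Dnmt1cKO library, Control 2 by less than the rounding of these values. The log2 fold change was 0.85 ± 0.56 (adjusted p = 0.452), and 0.36 ± 0.25 (adjusted p = 0.633) without Control 3 and the library labelled Control 4 (edgeR, Benjamini-Hochberg). For the 6 helicase subunits the fitted log2 fold changes ran from 0.07 (Mcm6) to 0.85 (Mcm3) over all libraries, and from -0.12 (Mcm6) to 0.57 (Mcm7) without those libraries, and no subunit passed the test. Mcm3 and the other members discussed outside the rule for named genes were chosen after their values were seen.

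Among the origin and helicase-activation factors, Cdc6, Cdt1 and the GINS genes varied widely over Dnmt1cKO libraries, with coefficients of variation of 51.5% to 133%, while Mcm10 and Cdc45, at 19.4% and 27.7%, were steadier than the replication median of 33.0%. Cdc6, which loads the helicase, had 181 CPM in Dnmt1cKO 2 and 16.5 to 28.7 CPM in the other 7 Dnmt1cKO libraries, against 18.6, 46.5, 0 and 2.84 CPM in Control 1 to 4. Its high value is that of 1 library, and the rest overlap Control 1. Cdt1, the partner of Cdc6, had 1.57 CPM in Dnmt1cKO 2 and 10.1 to 28.5 CPM in the others, against 25.9, 2.70, 0 and 0 CPM in Control 1 to 4. Gins3, a GINS subunit, had a lowest, median and highest level of 0.224, 9.84 and 17.1 CPM in Dnmt1cKO, against 15.2, 27.0, 15.1 and 2.84 CPM in Control 1 to 4. Most Dnmt1cKO libraries thus lay under Controls 1 to 3 in level, but the groups overlap and the log2 fold change of -0.77 ± 1.04 did not pass the test (adjusted p = 0.752, edgeR, Benjamini-Hochberg). Gins1 and Gins2, other subunits of the complex, had log2 fold changes of 1.38 ± 1.11 and 1.35 ± 0.89, neither past the test. Without Control 3 and the library labelled Control 4, Gins1, Gins2 and Gins3 stood at 0.62 ± 1.04, 0.57 ± 0.68 and -1.142 ± 1.08, and Cdc6 and Cdt1 at 0.43 ± 0.84 and 0.30 ± 0.98. Without Control 1, where it had 23.2 CPM against 0.337, 1.51 and 0 CPM in the other Controls, Gins1 was at 4.62 (adjusted p = 0.0382, edgeR). That fit called 657 of 13161 tested genes higher.

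Pcna, the sliding clamp, had a lowest, median and highest level of 141, 180 and 397 CPM in Dnmt1cKO, against 179, 47.5, 230 and 17.1 CPM in Control 1 to 4. The groups overlapped through Control 1 and Control 3, and the log2 fold change was 0.79 ± 0.53 (adjusted p = 0.474, edgeR, Benjamini-Hochberg) over all libraries and 0.91 ± 0.46 (adjusted p = 0.566) without Control 3 and the library labelled Control 4. Rfc4, a subunit of the clamp loader, had 190 CPM in Dnmt1cKO 8 and 30.7 to 50.1 CPM in the other Dnmt1cKO libraries, against 42.8, 25.3, 2.26 and 2.84 CPM in Control 1 to 4. Controls 1 and 2 stood near the 7 lower Dnmt1cKO libraries, and the log2 fold change of 1.57 ± 0.84 (adjusted p = 0.336) was the highest of the replication class, and 0.79 ± 0.66 (adjusted p = 0.696) without both libraries. Fen1, the nuclease that trims lagging-strand flaps, had a lowest, median and highest level of 43.9, 53.4 and 65.8 CPM in Dnmt1cKO, against 35.9, 0.337, 36.2 and 2.84 CPM in Control 1 to 4. All 8 Dnmt1cKO libraries were above all 4 Control libraries, of which Control 2 and the library labelled Control 4 held 1 count each. Its log2 fold change was 1.48 ± 0.84 (adjusted p = 0.370), and 1.60 ± 0.81 (adjusted p = 0.571) without Control 3 and the library labelled Control 4. Of its exon length, 78.8% overlaps the antisense gene Gm10143.

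The polymerase genes Pole and Pold1 had fitted changes of opposite sign over all libraries. Pole, the leading-strand polymerase, had a lowest, median and highest level of 4.85, 41.7 and 73.6 CPM in Dnmt1cKO, against 13.4, 37.1, 0.754 and 0 CPM in Control 1 to 4. Pold1, the lagging-strand polymerase, had 22.1, 38.5 and 60.6 CPM in Dnmt1cKO on the same summary, against 49.7, 18.9, 289 and 0 CPM in Control 1 to 4. Control 3 stood far above all other libraries for Pold1. Its log2 fold change was -1.15 ± 0.75 (adjusted p = 0.452, edgeR, Benjamini-Hochberg), 0.74 without Control 3, and 0.29 ± 0.52 without Control 3 and the library labelled Control 4. For Pole it was 1.52 ± 0.96 (adjusted p = 0.433) and 0.71 ± 0.75 without both libraries.

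Rrm1 and Tyms, of nucleotide supply, were among the more abundant replication genes. Rrm1, the large subunit of ribonucleotide reductase, had a lowest, median and highest level of 230, 318 and 376 CPM in Dnmt1cKO, against 212, 330, 89.0 and 28.4 CPM in Control 1 to 4. Control 2 lay inside the Dnmt1cKO range and the other Controls below it, with a log2 fold change of 0.91 ± 0.47 (adjusted p = 0.317, edgeR, Benjamini-Hochberg) and of 0.27 ± 0.26 without Control 3 and the library labelled Control 4. Tyms, thymidylate synthase, had 122, 162 and 324 CPM in Dnmt1cKO as lowest, median and highest, against 221, 132, 133 and 14.2 CPM in Control 1 to 4. Its groups overlapped, with a log2 fold change of 0.48 ± 0.52 (adjusted p = 0.674) and of 0.06 ± 0.34 without both libraries. Rrm2, the small subunit of ribonucleotide reductase, averaged 73.8 ± 13.2 CPM in Dnmt1cKO and 45.4 ± 42.5 CPM in Control (SD, n = 8 and 4), with 0.66 ± 0.67 over all libraries and -0.08 ± 0.31 without both, neither past the test.

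Among the G1 cyclins, Ccnd1, which links growth signals to the cycle through Cdk4 and Cdk6, had a lowest, median and highest level of 91.3, 132 and 167 CPM in Dnmt1cKO, against 71.4, 35.4, 436 and 2.84 CPM in Control 1 to 4. The Dnmt1cKO libraries sat above Controls 1 and 2, far below Control 3 and far above the library labelled Control 4. The log2 fold change was -0.08 ± 0.63 over all libraries (adjusted p = 0.968) and 1.34 ± 0.35 without Control 3 and the library labelled Control 4 (unadjusted p = 0.00127, adjusted p = 0.144; edgeR, Benjamini-Hochberg), and neither passed after adjustment. Over the alternatives its adjusted p ranged from 0.102 to 0.997. Of its exon length, 29.4% overlaps LTO1. The E cyclins Ccne1 and Ccne2, which act with Cdk2 at the start of S phase, averaged 24.7 ± 15.5 and 29.9 ± 13.4 CPM in Dnmt1cKO, against 54.5 ± 53.8 and 36.4 ± 34.1 CPM in Control (SD, n = 8 and 4). Their log2 fold changes of -1.16 ± 0.77 and -0.31 ± 0.81 did not pass the test and were -0.74 ± 0.61 and -0.03 ± 0.57 without both libraries, and Control 3 held the highest value of all 3 G1 cyclins.

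**Figure D3:**
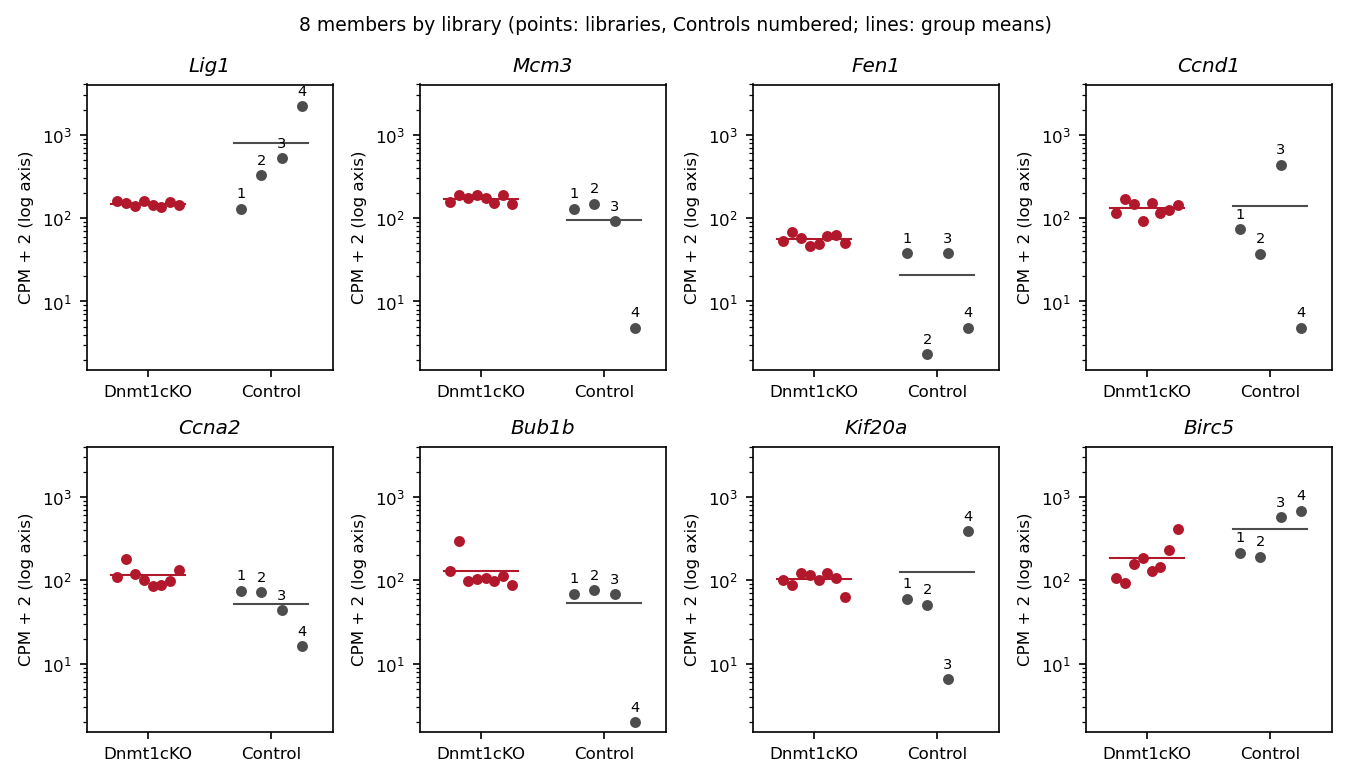
CPM + 2 (log axis) of 8 members in each library (points, Dnmt1cKO left, Control right and numbered), with lines at the group means. Dnmt1cKO libraries lie within 132 to 159 CPM for Lig1, while its Control libraries run from 127 to 2200 CPM, and for Mcm3, Fen1, Ccna2 and Bub1b all Dnmt1cKO points lie above all Control points.

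Among the genes of mitotic entry, Ccnb1 (cyclin B) had a lowest, median and highest level of 61.9, 107 and 133 CPM in Dnmt1cKO, against 88.3, 23.9, 6.78 and 5.69 CPM in Control 1 to 4. Control 1 lay inside the Dnmt1cKO range and the others below it. Without Control 1 the log2 fold change was 2.95 (adjusted p = 0.0197, edgeR), in a fit that called 657 of 13161 tested genes higher. The log2 fold change was 1.62 ± 0.69 (unadjusted p = 0.0241, adjusted p = 0.202, edgeR, Benjamini-Hochberg) and 0.87 ± 0.44 (adjusted p = 0.569) without Control 3 and the library labelled Control 4, while over all alternatives the adjusted p ranged from 0.0197 to 0.944. Ccnb2, the second B cyclin, had 53.2, 67.8 and 177 CPM in Dnmt1cKO as lowest, median and highest, against 54.0, 38.8, 4.52 and 2.84 CPM in Control 1 to 4. Plk1, the Polo kinase, had 19.1, 63.2 and 83.1 CPM in Dnmt1cKO on the same summary, against 33.4, 36.4, 2.26 and 0 CPM in Control 1 to 4. In both genes Control 3 and the library labelled Control 4 were low and Control 1 or 2 touched the Dnmt1cKO range, and the log2 fold changes of 1.63 ± 0.74 and 1.71 ± 0.83 (adjusted p = 0.232 and 0.271) became 0.85 ± 0.45 and 0.90 ± 0.48 without those libraries.

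Aurka, the Aurora kinase of the centrosome, had a lowest, median and highest level of 44.4, 63.2 and 144 CPM in Dnmt1cKO, against 36.0, 75.5, 260 and 296 CPM in Control 1 to 4. Control 3 and the library labelled Control 4 stood above every Dnmt1cKO library and Control 1 below. The log2 fold change was -1.19 ± 0.55 (unadjusted p = 0.0382, adjusted p = 0.248, edgeR, Benjamini-Hochberg) over all libraries and 0.45 ± 0.45 (adjusted p = 0.766) without Control 3 and the library labelled Control 4. Birc5 (survivin), a member of the chromosomal passenger complex, had 90.0, 148 and 416 CPM in Dnmt1cKO as lowest, median and highest, against 212, 189, 574 and 682 CPM in Control 1 to 4. Its log2 fold change of -1.19 ± 0.44 (adjusted p = 0.144) was -0.09 ± 0.43 without those libraries, where Controls 1 and 2 lay inside the Dnmt1cKO range. Ube2c, the ubiquitin-conjugating enzyme of the anaphase-promoting complex, averaged 36.7 ± 15.7 CPM in Dnmt1cKO, against 31.6, 26.3, 0.754 and 125 CPM in Control 1 to 4, and its log2 fold change of -0.28 ± 0.81 turned to 0.40 ± 0.60 without them.

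The spindle and checkpoint genes Bub1b, Tpx2 and Kif20a, and Ccna2, had higher median levels in Dnmt1cKO than either Control 1 or Control 2. Of the same roles, Kif23 did too (114 CPM, against 110 and 42.8 CPM), while Bub1 and Kif11 did not. Their Dnmt1cKO medians were 51.8 and 90.1 CPM, below Control 2 at 91.4 and 125 CPM. Without Control 3 and the library labelled Control 4, Bub1 and Kif11 had log2 fold changes of -0.293 and -0.085. Bub1b, the checkpoint kinase BubR1, had a lowest, median and highest level of 85.9, 104 and 292 CPM in Dnmt1cKO, against 66.8, 73.8, 66.3 and 0 CPM in Control 1 to 4. Ccna2, the cyclin of S phase and mitotic entry, had 83.8, 103 and 178 CPM in Dnmt1cKO on the same summary, against 73.3, 70.1, 41.5 and 14.2 CPM in Control 1 to 4. In both genes all 8 Dnmt1cKO libraries were above all 4 Control libraries, with log2 fold changes of 1.26 ± 0.65 and 1.144 ± 0.573 (adjusted p = 0.315 and 0.294, edgeR, Benjamini-Hochberg), and 0.91 ± 0.42 and 0.70 ± 0.33 without Control 3 and the library labelled Control 4. Tpx2, which nucleates spindle microtubules, had 36.8, 117 and 163 CPM in Dnmt1cKO as lowest, median and highest, against 55.3, 25, 98.0 and 128 CPM in Control 1 to 4. Kif20a, a kinesin of cytokinesis, had 61.3, 102 and 122 CPM in Dnmt1cKO, against 58.2, 49.2, 4.52 and 384 CPM in Control 1 to 4. Kif20a overlapped the Controls through the library labelled Control 4 alone, while Tpx2 overlapped them in several libraries, as Control 3 (98.0 CPM) also lay above Dnmt1cKO 2 (74.3 CPM). Of the exon length of Kif20a, 31.1% overlaps Cdc23.

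Of the 22 mitosis genes, 6 were higher at an unadjusted p under 0.05 without Control 3 and the library labelled Control 4 (Top2a, Ccna2, Bub1b, Cenpe, Kif20a and Tpx2), beside 6.96% of tested genes higher and 2.22% lower. Of the 24 replication genes 0 were higher, of the G1 cyclins Ccnd1 alone was, and 0 members were lower. The log2 fold changes of the 6 ran from 0.63 (Top2a) to 1.54 (Tpx2), with adjusted p from 0.286 to 0.530 (edgeR, Benjamini-Hochberg), so that none passed the test. Over all libraries Kif20a was at -0.27 ± 0.64, Tpx2 at 0.57 ± 0.57 and Cenpe, a kinesin of the kinetochore, at 0.20 ± 0.48. Kif20a stood at -0.66 without Control 3, at 1.48 without the library labelled Control 4 and at 0.97 without both, so its direction turned on the library labelled Control 4. Of the 6, Top2a and Ccna2 have roles that span S phase to mitosis. The difference between the classes in these counts was not tested, and the comparison rests on 2 Control libraries.

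Hmgb2, a chromatin protein that bends DNA, was the most abundant member, with a lowest, median and highest level of 818, 1360 and 2890 CPM in Dnmt1cKO, against 1410, 1400, 2060 and 1660 CPM in Control 1 to 4. Per kilobase of exon it also led, at 566 CPM per kb averaged over Dnmt1cKO, before Pcna at 136, Top2a at 127 and Rrm1 at 78.1, and Gins3 was last at 3.32. Mki67, a coat protein of mitotic chromosomes, had 246, 456 and 614 CPM in Dnmt1cKO on the same summary, against 339, 435, 803 and 19.9 CPM in Control 1 to 4. Top2a, the topoisomerase that untangles sister chromatids, had 510, 650 and 978 CPM in Dnmt1cKO, against 408, 489, 1400 and 25.6 CPM in Control 1 to 4. Mki67 and Top2a were highest in Control 3 and lowest in the library labelled Control 4, with Dnmt1cKO between. The log2 fold changes of Hmgb2, Mki67 and Top2a were -0.10 ± 0.33, 0.25 ± 0.48 and 0.19 ± 0.51 over all libraries, and 0.18 ± 0.37, 0.37 ± 0.31 and 0.63 ± 0.27 without both libraries, none past the test.

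**Figure D4:**
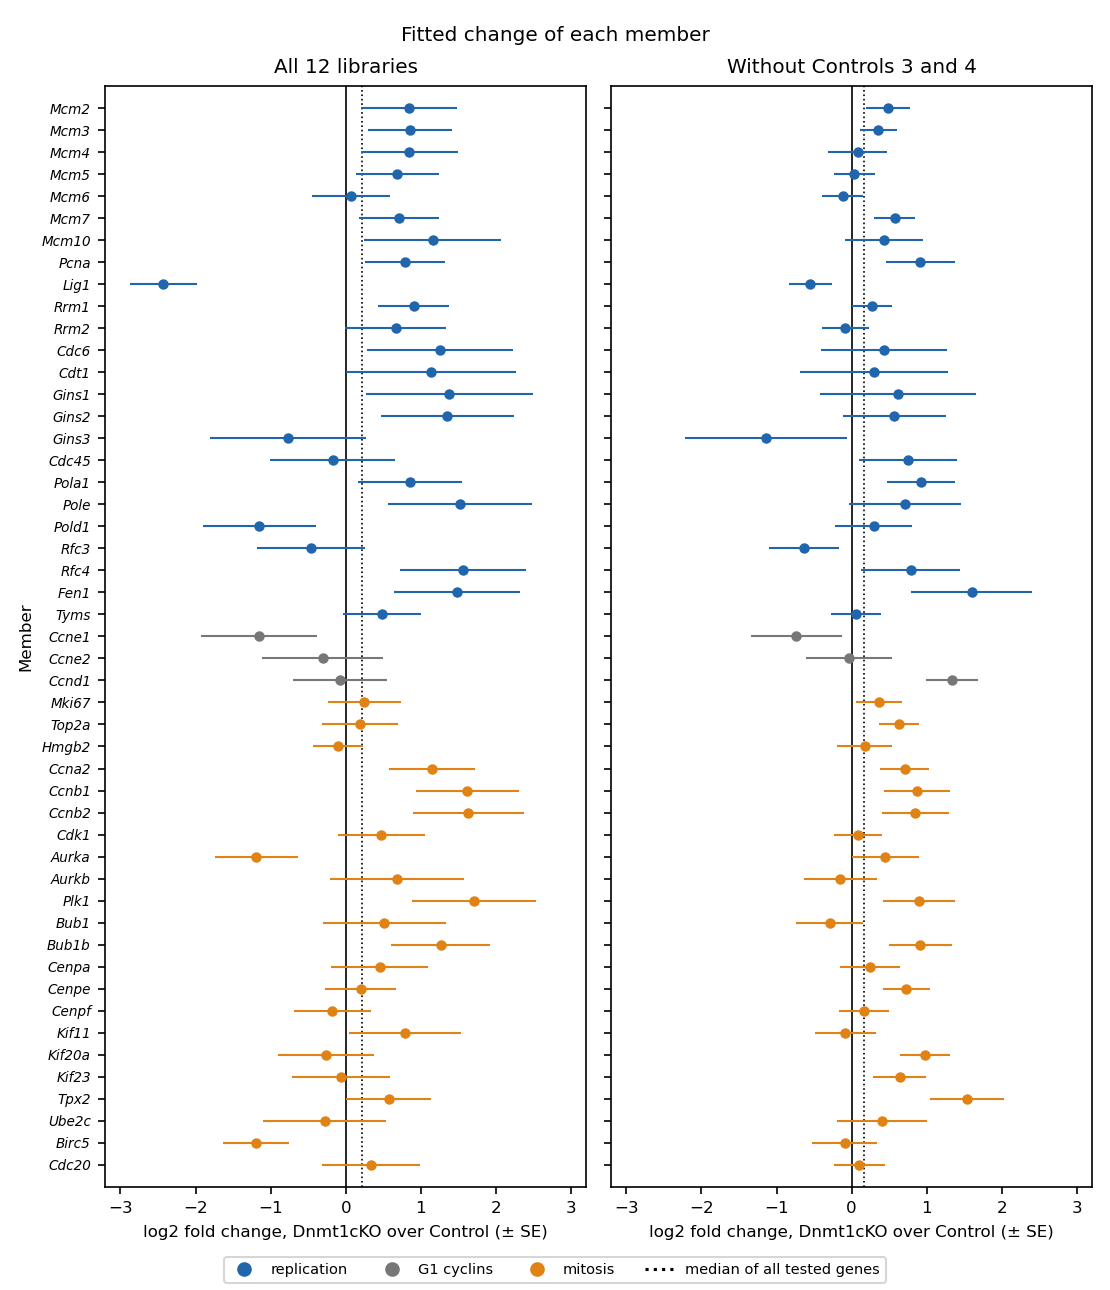
Fitted log2 fold change of each member, Dnmt1cKO over Control (points, with SE as bars), over all 12 libraries (left) and without Control 3 and the library labelled Control 4 (right). The dotted line is the median of all tested genes (0.22 and 0.16). Lig1 lies at -2.43 on the left and -0.55 on the right, and bars are shorter on the right for most members.

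Over all libraries, 19 of 24 replication genes and 15 of 22 mitosis genes had a fitted log2 fold change above 0, beside 57.3% of all tested genes. The median log2 fold change was 0.84 for replication, 0.39 for mitosis, -0.31 for the G1 cyclins and 0.22 for all tested genes, so replication stood 0.45 above mitosis. Without the library labelled Control 4 the 2 classes had medians of 0.54 and 0.56, and without Control 3 as well 0.39 and 0.43, with 19 of 24 and 18 of 22 genes above 0 beside 57.2% of tested genes. The gap of replication over mitosis was then -0.03 in both cases. In these edgeR fits it was present only with the library labelled Control 4, where 22 replication and 12 mitosis genes had under 10 counts. With all 12 libraries kept, the gap was 0.69 with DESeq2 but 0.04 with limma-voom with quality weights, so it also depended on the method. Scaling moved the median of all tested genes to 0.07 (RLE factors) or 0.38 (library totals alone). Relative to that median the replication genes stood at 0.63, 0.71 and 0.59 under TMM, RLE and totals alone, and the mitosis genes at 0.18, -0.02 and 0.22, so that the mitosis genes changed side under RLE. Of all 49 members, 69.4% were above 0 with TMM, 59.2% with RLE and 83.7% with totals alone.

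The groups did not overlap, with Dnmt1cKO above, for 4 members, Mcm3 and Fen1 of replication and Ccna2 and Bub1b of mitosis, and with Dnmt1cKO below for 0 members, beside 2.59% and 0.486% of tested genes. Against Controls 1 and 2 alone, 4 replication genes (Mcm3, Mcm7, Cdc45 and Fen1), Ccnd1 and 4 mitosis genes (Top2a, Ccna2, Bub1b and Kif20a) lay wholly above, and Rfc3 wholly below, beside 4.63% and 4.73% of tested genes.

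Within a library, the summed level of the 24 replication genes was 2200 ± 172 CPM in Dnmt1cKO and 2090 ± 192 CPM in Control (SD, n = 8 and 4), or 1950 ± 113 CPM in Controls 1 and 2. That of the 22 mitosis genes was 4550 ± 595 CPM in Dnmt1cKO and 4400 ± 1250 CPM in Control, or 3710 ± 141 CPM in Controls 1 and 2. The ratio of replication to mitosis was 0.489 ± 0.0619 in Dnmt1cKO and 0.495 ± 0.109 in Control, with Control 1 to 4 at 0.519, 0.531, 0.339 and 0.592. The Dnmt1cKO ratios ran from 0.409 to 0.567 and held Controls 1 and 2 inside their range, so the difference was smaller than the spread between libraries. Sums rest on their most abundant genes: Hmgb2 made up 18.9% to 51.6% of the mitosis sum in Dnmt1cKO, against 33.0% to 42.3% in Control. Without Lig1 the replication sum was 1820 to 2290 CPM in Dnmt1cKO, against 1740, 1700, 1600 and 131 CPM in Control 1 to 4. The ratio without Lig1 and Hmgb2 was 0.684 ± 0.0914 in Dnmt1cKO and 0.484 ± 0.335 in Control. Control 1 to 4 then stood at 0.794, 0.704, 0.381 and 0.0577. Without Hmgb2 alone the library labelled Control 4 was at 1.03, so its ratio rested on Lig1.

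**Figure D5:**
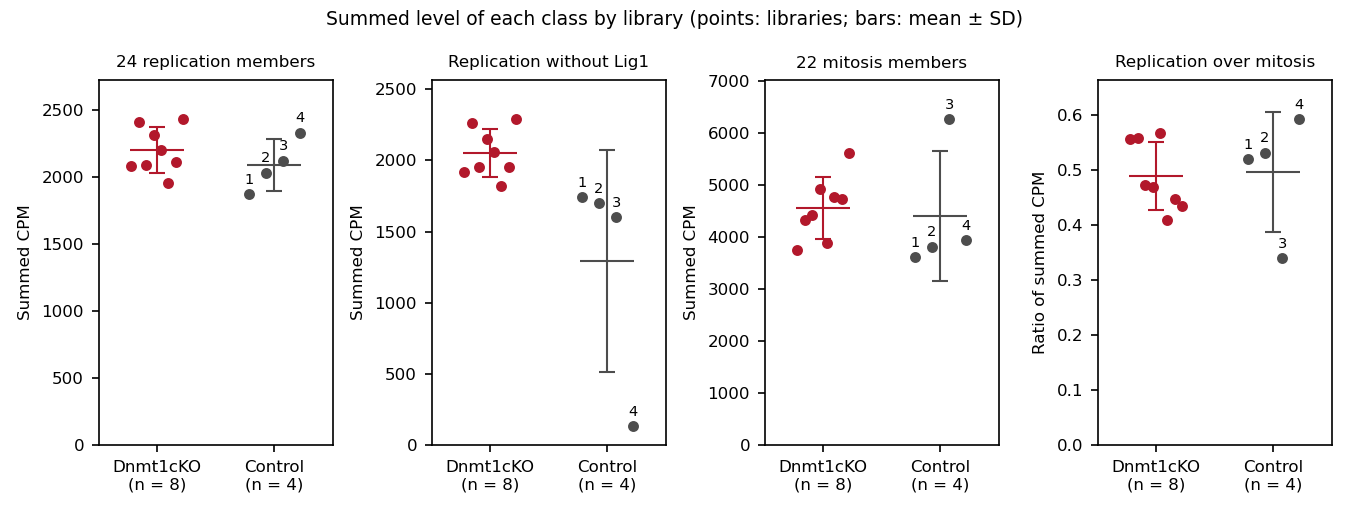
Summed CPM of the 24 replication members, of replication without Lig1 and of the 22 mitosis members, and the ratio of replication to mitosis, by library (points, Dnmt1cKO left, Control right and numbered; bars are mean ± SD). The ratios overlap (0.489 ± 0.0619 and 0.495 ± 0.109), and without Lig1 Control 4 drops to 131 CPM.

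Within pairs of libraries that share a description code, the classes ran as follows. At the codes b4 and b5, where the Controls are 1 and 2, 18 and 16 of the 22 mitosis genes were higher in Dnmt1cKO (81.8% and 72.7%), against 15 and 15 of the 24 replication genes (62.5% each), beside 48.5% and 56.0% of all tested genes. At b6, with Control 3, 70.8% of replication and 63.6% of mitosis genes were higher, beside 64.7% of tested genes. At b7, where 3 Dnmt1cKO libraries meet the library labelled Control 4, 95.8% of replication and 68.2% of mitosis genes were higher, beside 78.4% of tested genes. The median differences in log2(CPM + 2) were 0.16, 0.43, 0.86 and 3.36 for replication at b4 to b7 and 0.56, 0.48, 1.33 and 2.19 for mitosis, so that at b6 the class with the higher share had the lower median. Each pair but the last is 1 library against 1, so it has no replicate check.

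Among the 8 Dnmt1cKO libraries, most extremes fell in Dnmt1cKO 2 and Dnmt1cKO 8. They held the highest level of 15 and 10 of the 49 members and the lowest of 7 and 19. Of all tested genes they held the highest level of 21.7% and 28.6% and the lowest of 40.4% and 22.7%, and they were also the shallowest of their group, at 4007533 and 4009772 counts. In Dnmt1cKO 8, Rfc4 (190 CPM), Pcna (397 CPM), Tyms (324 CPM), Gins1 (45.1 CPM) and Gins2 (96.7 CPM) were the highest of the group, while Mcm4 (33.1 CPM), Pole (4.85 CPM), Plk1 (19.1 CPM) and Tpx2 (36.8 CPM) were the lowest. Gins3, of the same complex as Gins1 and Gins2, had 4 counts in this library. The median coefficient of variation over Dnmt1cKO libraries was 33.0% for replication genes and 33.4% for mitosis genes, beside 40.6% for 9068 tested genes in the same range of level. The replication class held both ends, from Lig1 (6.76%) and Mcm3 (9.94%) to Rfc4 (95.5%) and Cdc6 (133%). Without Dnmt1cKO 2 and Dnmt1cKO 8 the values for Rfc4 and Cdc6 were 17.3% and 17.7%.

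Further genes of the cycle, taken from lists of genes outside the 49, gave few calls. Among all tested genes edgeR called 1.03% higher and 1.55% lower. Of 42 other replication genes tested, 0 were higher and 1 lower (Rfc2, a clamp-loader subunit, log2 fold change -1.85 ± 0.52, adjusted p = 0.0477, edgeR, Benjamini-Hochberg), with a median of 0.20. Rfc2 was -0.38 (adjusted p = 0.725) without the library labelled Control 4 and 0.64 (adjusted p = 0.587) without Control 3 as well. In the same list Rpa2, a single-strand binding protein, had a log2 fold change of 1.90 ± 0.76 (adjusted p = 0.173), with all Dnmt1cKO libraries above all Controls, and 1.29 without both libraries. Of 60 other mitosis genes tested, 0 were higher and 1 lower (Pttg1, securin, -2.89 ± 0.79, adjusted p = 0.0411), with a median of 0.24, and Pttg1 was -1.30 (adjusted p = 0.485) without that library. At an unadjusted p under 0.05, edgeR gave 1 higher and 3 lower among the other replication genes and 4 higher and 2 lower among the other mitosis genes. The shares of all tested genes were 8.19% higher and 9.54% lower. DESeq2 called 1 higher and 2 lower, and 2 higher and 2 lower, in these lists, beside 3.82% and 8.07% of tested genes. Limma-voom called 0 in both, beside 0.0627% and 0.243%. It gave an unadjusted p under 0.05 for 1 higher and 0 lower, and for 5 higher and 1 lower, beside 5.13% and 5.16%. Pola2 of the first list had a log2 fold change of -2.03, and Cenpm and Cenpw of the second had 2.50 and -1.98, none past the test, and without both libraries they stood at -1.07, 3.27 and -1.13. Anln, a scaffold of the cytokinetic ring, had 2.09 ± 0.85 (adjusted p = 0.182), and 1.24 without both.

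Of 40 genes of cycle control tested, 1 was higher and 1 lower, beside 1.03% and 1.55% of all tested genes. Both are inhibitors of cyclin-dependent kinases. Cdkn1a (p21), a target of p53, had a lowest and highest level of 12.3 and 122 CPM in Dnmt1cKO, against 8.61, 0, 3.77 and 5.69 CPM in Control 1 to 4. No Control reached the lowest Dnmt1cKO library, and the level was 14.8-fold higher in the fit (log2 fold change 3.89 ± 0.97, adjusted p = 0.0232, edgeR, Benjamini-Hochberg). It stood at 3.995 without the library labelled Control 4 (adjusted p = 0.0506) and at 3.88 without Control 3 as well (adjusted p = 0.170). Cdkn1c (p57), an imprinted gene, averaged 373 ± 170 CPM in Dnmt1cKO and 1140 ± 852 CPM in Control (SD, n = 8 and 4), 3.06-fold lower in Dnmt1cKO (log2 fold change -1.61 ± 0.39, adjusted p = 0.0200), with -1.11 (adjusted p = 0.310) without both libraries. Cdc25c, the phosphatase that activates Cdk1, had a log2 fold change of 3.79 ± 1.29 (adjusted p = 0.109), with Controls at 3.44, 0, 0.754 and 0 CPM, and 3.35 without both libraries. E2f5 had -2.46 (adjusted p = 0.286) but 1.13 (adjusted p = 0.884) without both, with Control 3 at 100 CPM against 4.55, 0 and 2.84 CPM in Controls 1, 2 and 4. The median of the list was 0.28. DESeq2 called 3 genes of this list higher and 3 lower, beside 3.82% and 8.07% of tested genes. Limma-voom called 0, with an unadjusted p under 0.05 for 1 higher and 1 lower gene, beside 5.13% and 5.16% of tested genes.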

How the data were processed

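The deposited table holds RSEM expected counts (estimated counts, partly fractional) per gene symbol; per the submitters' processing notes, the authors used RSEM 1.2.3, Bowtie 0.12.9 and bcl2fastq 2.17.1.14 with mouse build mm10. No annotation, strand setting or trimming is named in these sources. Of the 49 members, 30 had a fractional count in at least 1 library (Mcm5 and Cenpf in all 12), so reads shared with other copies were divided by estimate. Expected counts were rounded and tested with edgeR 4.0.16 in R 4.3.3: quasi-likelihood F-test, robust dispersion, TMM factors, genotype as the only term, filterByExpr (minimum count 10, minimum total 15), and Benjamini-Hochberg adjustment over all 12761 genes tested. The fit was also run on simulated data with set fold changes, and the share of these that it called is not reported here. CPM uses TMM-adjusted totals, and a pseudocount of 2 CPM was added for log values. The square root of the common dispersion was 0.984, and 0.904 without Control 3 and the library labelled Control 4. DESeq2 1.42.0, limma 3.58.1 (voom with quality weights), other scaling, no filter, omitted libraries and blocks were the alternatives.

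Groups come from the sample titles. Nothing states that libraries came from separate embryo pools (3 Dnmt1cKO libraries share the code b7), so p-values reflect only library-to-library spread, which may be technical. The members and gene lists were chosen with earlier results of these data known, so lists get counts and medians, with no test. Named were members past an unadjusted p of 0.05, the 4 most abundant and the 3 highest and 3 lowest fold changes of each class, the G1 cyclins, Pcna and Mki67, and, in other cycle lists, called genes and the 2 highest and 2 lowest fold changes. Of the genes this rule names in those lists, 1 is not reported here. Gene positions are from GENCODE M21 (GRCm38) and promoter windows from RefSeq (GRCm38.p6).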

Additional observations from a re-analysis of the deposited data

Results flagged for a closer look

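Over 44 sets of values of a named result in the 8 Dnmt1cKO or the 4 Control libraries, 7 held a library that stood apart by Dixon's criterion at 95%, which chance alone meets in about 1 of 20 groups. In Dnmt1cKO 8, Rfc4 (190 CPM), Tyms (324 CPM), Aurka (144 CPM) and Birc5 (416 CPM) lay above the other Dnmt1cKO libraries. In Dnmt1cKO 2, Top2a (978 CPM) and Ccnb2 (177 CPM) lay above the others. In Control 3, Ccnd1 (436 CPM) lay above the other Controls. These values sit in the shallowest Dnmt1cKO libraries and in a shallow Control library, and whether depth plays a part was not tested.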

How the results depend on the processing

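Called lower were 2 members with RLE factors, 3 with DESeq2, and 0 with limma-voom, without Control 3 and the library labelled Control 4, without these and Dnmt1cKO 2, and with a block by title number. Tested genes called lower were 726 of 12761 with RLE factors, 1030 with DESeq2 and 31 with limma-voom. They were 2 of 13990 and 13 of 13957 in the fits with these libraries omitted, and 29 of 11459 with the block. Leaving out 1 library at a time gave 0 to 1 members lower and 0 to 2 higher (Ccnb1 and Gins1, without Control 1). Of tested genes, 36 to 494 were lower and 60 to 657 higher in these fits, with 657 of 13161 higher without Control 1. Over these omissions of 1 library the median log2 fold change ran from 0.535 to 1.050 for replication, 0.321 to 0.560 for mitosis and 0.191 to 0.487 for all tested genes. Replication minus mitosis ran from -0.025 (without the library labelled Control 4) to 0.620, and the log2 difference in their summed ratio from -0.162 to 0.079. Replication minus mitosis was -0.032 without Controls 3 and 4 and -0.117 without these and Dnmt1cKO 2. As a difference of mean log2(CPM + 2), the mitosis median was 0.981. Class levels were also taken per library, as the median over members of log2(CPM + 2) minus the gene's mean. Over all 12 libraries Dnmt1cKO minus Control was then 1.11 for replication and 1.22 for mitosis. Replication minus mitosis changed by -0.106 on this scale, with SDs of 0.165 in Dnmt1cKO and 0.822 in Control (n = 8 and 4).

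Among the 21 named members, these log2 fold changes changed sign. With library totals alone, Ccnd1 was 0.226, Hmgb2 0.147 and Ube2c 0.151. With limma-voom, Pold1 was 0.179, Tyms -0.123, Ccnd1 1.181, Aurka 0.022 and Ube2c 0.325. Without Control 3, Pold1 was 0.739, Ccne2 0.419, Ccnd1 1.755 and Hmgb2 0.032; without the library labelled Control 4, Mki67 was -0.060, Top2a -0.121 and Ube2c 0.949. Without both, Pold1 was 0.291, Ccnd1 1.339, Hmgb2 0.176, Aurka 0.447 and Ube2c 0.404; without Dnmt1cKO 2 as well, 0.186, 1.277, 0.261, 0.476 and 0.517 in the same order. Leaving out 1 library, the named members with a sign change ranged from -1.489 to 0.739 (Pold1), -0.623 to 0.419 (Ccne2), -0.394 to 1.755 (Ccnd1), -0.248 to 0.032 (Hmgb2), -0.060 to 0.832 (Mki67), -0.121 to 1.101 (Top2a) and -0.686 to 0.949 (Ube2c). Of all 49 members, 7 changed sign without Control 3, 6 without the library labelled Control 4 and 14 without both. Beside those named, these were Cdc45 (1.048), Cenpf (0.598) and Cdc20 (-0.059) without Control 3, and Mcm6 (-0.222), Kif20a (1.480) and Kif23 (1.191) without the library labelled Control 4. Without both they were Mcm6 (-0.122), Rrm2 (-0.084), Cdc45 (0.750), Aurkb (-0.149), Bub1 (-0.293), Cenpf (0.164), Kif11 (-0.085), Kif20a (0.974) and Kif23 (0.638). The cause was not tested.

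Numbers shared by both groups gave no sign of pairing: correlations of same-numbered deviations were -0.055 to 0.061, against -0.094 to 0.073 for other pairs. These values cannot exclude a shared batch, as the Control deviations rest on 4 libraries of unlike depth. With the title number as a replicate block, the median of all tested genes was 0.864, Lig1 was -1.584 (adjusted p = 0.539, edgeR), and Pold1 was 0.860, Ccne2 0.465 and Ccnd1 1.379. With the b code as a replicate block, that median was 1.069, 1 member (Lig1, -2.169) was lower, and Pold1 was 0.454, Ccne2 0.448, Ccnd1 1.284 and Ube2c 0.340. In all, 135 alternative values of class results and 400 of named members kept direction and side of the threshold (or, for values with no test, stayed within the spread between libraries), and 14 and 41 did not. Depth limits the 37 members under 10 counts in the library labelled Control 4 and the 17 in Control 3.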
